A study of Homo sapiens with 27 samples.

Results

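The histone genes of U2OS cells were followed in poly(A)-selected RNA across 3 cell lines and 3 stages of culture growth. The set held every gene symbol in the count files that starts with HIST1H, HIST2H, HIST3H or HIST4H, together with H1F0, H1FX, H2AFX, H2AFZ, H2AFV, H2AFY, H2AFY2, H3F3A, H3F3B and H3F3C, and 13 pseudogene symbols (ending in PS and a number) were left out. This gave 86 genes of the 55882 symbols in the files. The 76 HIST1H to HIST4H genes are called replication-dependent here, and comprised 6 H1, 17 H2A, 23 H2B, 15 H3 and 15 H4 genes. The other 10 are called replication-independent. Leaving out symbols with PS did not remove every pseudogene. HIST2H2BA, HIST2H2BB, HIST2H2BC, HIST2H3DP1 and HIST3H2BA have current symbols of pseudogenes (H2BP1, H2BP2, H2BC20P, H3P4 and H2BC27P). They are counted among the H2B and H3 genes. HIST2H2BD was matched to no single current symbol, so whether it is a pseudogene was not checked.

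Replication-dependent histone genes supply the bulk of histones for newly copied DNA during S phase. Their mRNAs normally end in a conserved stem-loop, which is bound by SLBP, in place of a poly(A) tail, so a poly(A)-selected library captures them poorly. Replication-independent genes code for linker and replacement variants such as the H2A.Z, macroH2A and H3.3 proteins, and most of their mRNAs carry a tail and are made throughout the cell cycle. Some replication-dependent genes are also known to give tailed transcripts when transcription runs past the stem-loop, as has been described in cells that leave the cell cycle or differentiate.

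U2OS is an established human osteosarcoma cell line. The control line, labelled WT, carried a blank pLKO.1 vector, and the lines MMP2sh1 (labelled 23) and MMP2sh2 (labelled 26) each carried 1 short hairpin RNA against MMP2, a matrix metalloproteinase that the study examined as a nuclear protease of the histone H3 tail. All 3 were stable, drug-selected lines, so each hairpin was represented by 1 line, and nothing in the sources used here says whether the lines were clones. Each line was sampled at day -2 (proliferating, plated at 30 % confluence), at day 0 (confluent) and at day 2 (over-confluent), with 3 libraries per line and stage and 27 in all. The study describes its replicates as independent biological replicates.

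The stem-loops of the genes that the results turn on were read from the GRCh37 (hg19) genome, because the kind of end decides whether an mRNA enters these libraries. Each line below gives 26 bases, 5' to 3' on the strand of the gene, with the 16 bases of the stem-loop in capitals.
HIST1H2BK: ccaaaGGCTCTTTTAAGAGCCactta
HIST1H1C: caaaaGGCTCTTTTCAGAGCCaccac
HIST1H2AC: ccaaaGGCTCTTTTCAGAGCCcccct
HIST2H2BE: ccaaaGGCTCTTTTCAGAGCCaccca
HIST1H2BJ: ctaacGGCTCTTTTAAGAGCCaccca
HIST1H4H: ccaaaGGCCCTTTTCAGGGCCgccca
H2AFX: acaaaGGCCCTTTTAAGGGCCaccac

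These stem-loops lie in the 3' untranslated regions, on the minus strand at chr6:27114145-27114160 (HIST1H2BK), chr6:26055972-26055987 (HIST1H1C), chr1:149857738-149857753 (HIST2H2BE), chr6:27100100-27100115 (HIST1H2BJ), chr6:26285359-26285374 (HIST1H4H) and chr11:118965608-118965623 (H2AFX), and on the plus strand at chr6:26124897-26124912 (HIST1H2AC). In all 7 the arms of the stem differ in a few bases only, and the H4 gene shares its GGCCC arm with H2AFX. Of the 86 genes, 80 matched a current symbol and 74 could be placed on GRCh37. The stem-loop was searched, by its consensus, in each placed gene and 200 bases beyond it. All 64 placed replication-dependent genes held one, and of the 10 replication-independent genes H2AFX held one.

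The promoters of these genes shared short motifs that differ by histone class, shown here because the members of a class are compared as a group below. In the RefSeq promoter sequences (GRCh38.p14, 250 bases before to 50 after each start), the octamer ATTTGCAT, searched on both strands, occurred in 34.4% of the 64 promoters of replication-dependent genes and in 1.77% of all 35116 promoters. It was found in 11 of 16 H2A promoters and 10 of 15 H2B promoters. The H1 box AAACACA, also on both strands, occurred in all 6 H1 promoters and in 5.64% of all promoters. Neither motif contains the other. In the windows below the motif is in capitals, and the sequence runs 5' to 3' on the strand of the gene.
HIST1H2BK, octamer: ttcaccttATTTGCATgagaggtc
HIST1H2BJ, octamer: ttcaccttATTTGCATaagcgatt
HIST2H2BE, octamer: gagccctaATTTGCATaaggtggt
HIST1H2AC, octamer on the other strand: gcagagctATGCAAATgaggtatg
HIST1H1C, H1 box: ggtggaacAAACACAacttggga

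These windows are at chr6:27146889-27146912, chr6:27132827-27132850 and chr1:149886713-149886736 on the minus strand, chr6:26124034-26124057 on the plus strand and chr6:26056575-26056597 on the minus strand of GRCh38.p14. The octamer of HIST1H2BJ also lies in the promoter of its divergent neighbour HIST1H2AG, 208 bases before the start of that gene, and the octamer of HIST2H2BE lies likewise in that of HIST2H2AC. A match is a description of the letters in the window and not a measured binding site.

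Between 33580129 and 59374327 counts per library were assigned to genes (median 40075178), of which 147331 to 269260 fell on the 86 histone genes and 15170 to 36887 on the 76 replication-dependent genes. MMP2, the target of both hairpins, stood at 232 ± 14.2 CPM (counts scaled to library size; SD, n = 3 here and below) in control cells at day -2, at 40.1 ± 6.45 in MMP2sh1 and at 144 ± 10.4 in MMP2sh2, and all 6 differences between hairpin line and control over the 3 days passed the test (log2 fold change from -2.53 to -2.34 in MMP2sh1 and from -1.06 to -0.70 in MMP2sh2). Of 8 osteoblast lineage markers, 4 had a mean of at least 1 CPM. COL1A1 was at 1004 to 1486 CPM and RUNX2 at 30.0 to 63.7. In contrast, COL1A2, SP7 and BGLAP stayed at or under 0.683, 0.168 and 0.570 CPM, and IBSP was listed at 0 in all 27 libraries. The 4 leukocyte markers summed to 0.155 to 1.68 CPM, the 3 epithelial to 3.31 to 9.35 and the endothelial ones to 1.61 to 5.02.

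Few replication-dependent genes gave most of the reads. Of the 76, 8 were listed at 0 in all 27 libraries (1 H2A, 3 H2B, 2 H3 and 2 H4 genes), 47 had a mean under 1 CPM, 13 a mean of 1 to 10 CPM and 8 a mean of 10 CPM or more. HIST2H2BB and HIST3H2BA, which have pseudogene symbols, were among the 3 H2B genes at 0. A count of 0 still allows up to 3 counts, or 0.0505 to 0.0893 CPM depending on the library. HIST1H2BK gave 32.8% of all replication-dependent reads, HIST1H1C 29.2% and HIST1H2AC 10.9%, so that these 3 genes gave 72.9%. The 12 genes with most reads gave 95.6%, and the other 64 gave 4.42%. These are shares of reads, not divided by transcript length, and intervals from counts cover counting error only. By contrast, 9 of the 10 replication-independent genes had a mean of 10 CPM or more, and H3F3C, an H3 gene known mainly from testis, stayed under 1 CPM in every library.

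Genes whose GENCODE v44 annotation runs on past the stem-loop carried more reads, by the median, than genes whose annotation ends there. The annotation used to count the reads is not given in the sources used here, and its ends may differ from these, so the ends below need not be those on which reads were counted. Of 63 placed replication-dependent genes with 1 stem-loop, 15 had annotated ends more than 100 bases past it, introns included, and 8 of these 15 had a mean of at least 1 CPM, with a median of 2.86 CPM. The other 48 ended at most 11 bases past the stem-loop, and 9 of them reached 1 CPM, with a median of 0.180 CPM. A longer annotation also has more bases on which reads can be counted, and no test was run on this difference. Among the 12 genes with most reads, HIST1H2AC was annotated for 14432 bases past its stem-loop, HIST1H2BD for 12747, HIST1H4H for 7522, HIST1H2BJ for 6424, HIST4H4 for 2725 and HIST2H2BE for 1729. HIST1H2BK and HIST1H1C, the pair with most reads, ended 5 and 4 bases past it in this annotation.

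**Figure D1:**
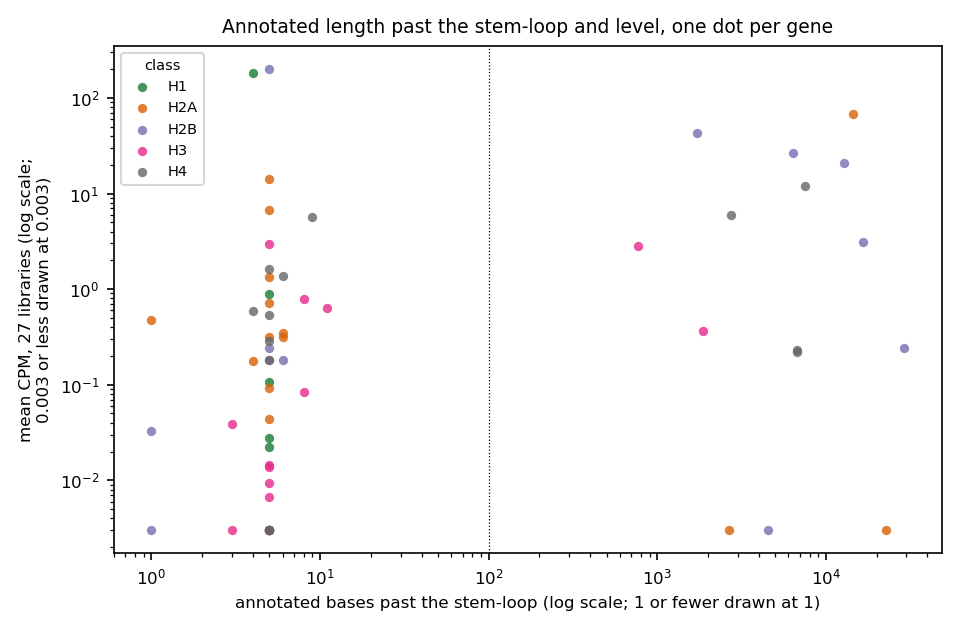
Annotated bases past the stem-loop (horizontal log axis, values of 1 or less drawn at 1) against mean CPM over the 27 libraries (vertical log axis, values of 0.003 or less drawn at 0.003), with 1 dot per placed replication-dependent gene, coloured by histone class, and a dotted line at 100 bases. Genes to the right of the line had a median of 2.86 CPM and those to the left 0.180 CPM, with HIST1H2BK and HIST1H1C at the top of the left side.

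Reads of near-identical copies could not always be told apart. An exact run of 150 bases, the read length, was shared by 13 placed members with another member, among them HIST1H4J with HIST1H4K, HIST2H4A with HIST2H4B, and HIST2H3A with HIST2H3C and HIST2H3D, and the split of reads between such copies is uncertain. For 16 members an annotated exon overlapped another gene, among them HIST1H2AC, HIST1H4H, H1FX, H2AFZ, H3F3A and H3F3B, and since counting did not use the strand, reads shared by 2 genes were left uncounted. None of the 11 placed genes among the 12 with most reads shared such a run with another placed member. HIST1H2BC, the one of the 12 that was not placed, was not checked, and neither were HIST1H2BF and HIST2H2BD.

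The summed level of the 76 replication-dependent genes moved in opposite directions in control and MMP2sh1 cells as the cultures grew. In control cells the sum was 522, 524 and 492 CPM at day -2, 556, 527 and 558 at day 0, and 614, 671 and 675 at day 2. In MMP2sh1 cells it was 713, 655 and 681 CPM, then 477, 479 and 485, then 405, 388 and 399. MMP2sh2 cells gave 738, 749 and 806 CPM at day -2, 849, 874 and 871 at day 0, and 662, 673 and 670 at day 2.

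At day -2 all 6 hairpin libraries lay above the 3 control libraries, at day 0 MMP2sh1 lay below and MMP2sh2 above control, and at day 2 MMP2sh1 lay below control while MMP2sh2 overlapped it. The ratio of means between day 2 and day -2 was 1.27 in control, 0.582 in MMP2sh1 and 0.874 in MMP2sh2. No test was run on the sums, since 3 genes made up most of each. Without HIST1H2BK, HIST1H1C and HIST1H2AC the same ratios were 1.71, 0.938 and 1.23. In bulk RNA, fewer cells expressing a gene and less RNA per cell cannot be told apart.

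By class, all 5 mean sums were higher at day 2 than at day -2 in control and lower in MMP2sh1, and no test was run on these sums either. The ratios of day 2 to day -2 ran from 1.07 (H2A) to 1.74 (H4) in control and from 0.503 (H2A) to 0.979 (H4) in MMP2sh1. The MMP2sh1 libraries of these days overlapped for the H3 and H4 sums. In MMP2sh2 the ratios were 0.889 (H1), 0.814 (H2A), 0.849 (H2B), 1.20 (H3) and 1.24 (H4). The H1 sum, nearly all of it HIST1H1C, had means of 136, 151 and 192 CPM at days -2, 0 and 2 in control, of 166, 122 and 91.0 in MMP2sh1, and of 238, 339 and 212 in MMP2sh2. The H2B sum had means of 267, 273 and 329 CPM in control, 364, 243 and 216 in MMP2sh1, and 382, 369 and 324 in MMP2sh2. The H2A sum changed little in control (80.5, 84.7 and 86.0 CPM) and went from 121 to 60.9 CPM between day -2 and day 2 in MMP2sh1. H4 genes summed to 21.7, 30.2 and 37.7 CPM in control and to 23.6, 25.3 and 23.1 in MMP2sh1, and the 15 H3 genes together stayed between 5.42 and 9.81 CPM in every library.

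Other RNAs without a tail varied far more between libraries. A list of 15 such RNAs (RN7SK, RN7SL1, RN7SL2 and other small nuclear, Cajal body and enzyme RNAs), nearly all of whose reads came from RN7SL1 and RN7SL2, was summed as a measure of untailed RNA carried through the selection. It varied by 10.8 to 83.3% (coefficient of variation) among the 3 libraries of a group, where the replication-dependent sum varied by 0.873 to 5.19%. At day 2 the list stood at 523, 98.3 and 186 CPM in the MMP2sh1 libraries, beside replication-dependent sums of 405, 388 and 399 CPM, and at 304, 400 and 59.4 CPM in the MMP2sh2 libraries, beside 662, 673 and 670 CPM. The mean of the list went from 83.8 CPM at day -2 to 126 at day 2 in control, from 67.9 to 269 in MMP2sh1 and from 88.4 to 254 in MMP2sh2. Without RN7SL1 and RN7SL2 the list summed to 1.49 to 9.63 CPM, and its ratios of day 2 to day -2 were 1.77 in control, 2.14 in MMP2sh1 and 1.69 in MMP2sh2. The part of either sum in the histone differences was not tested.

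**Figure D2:**
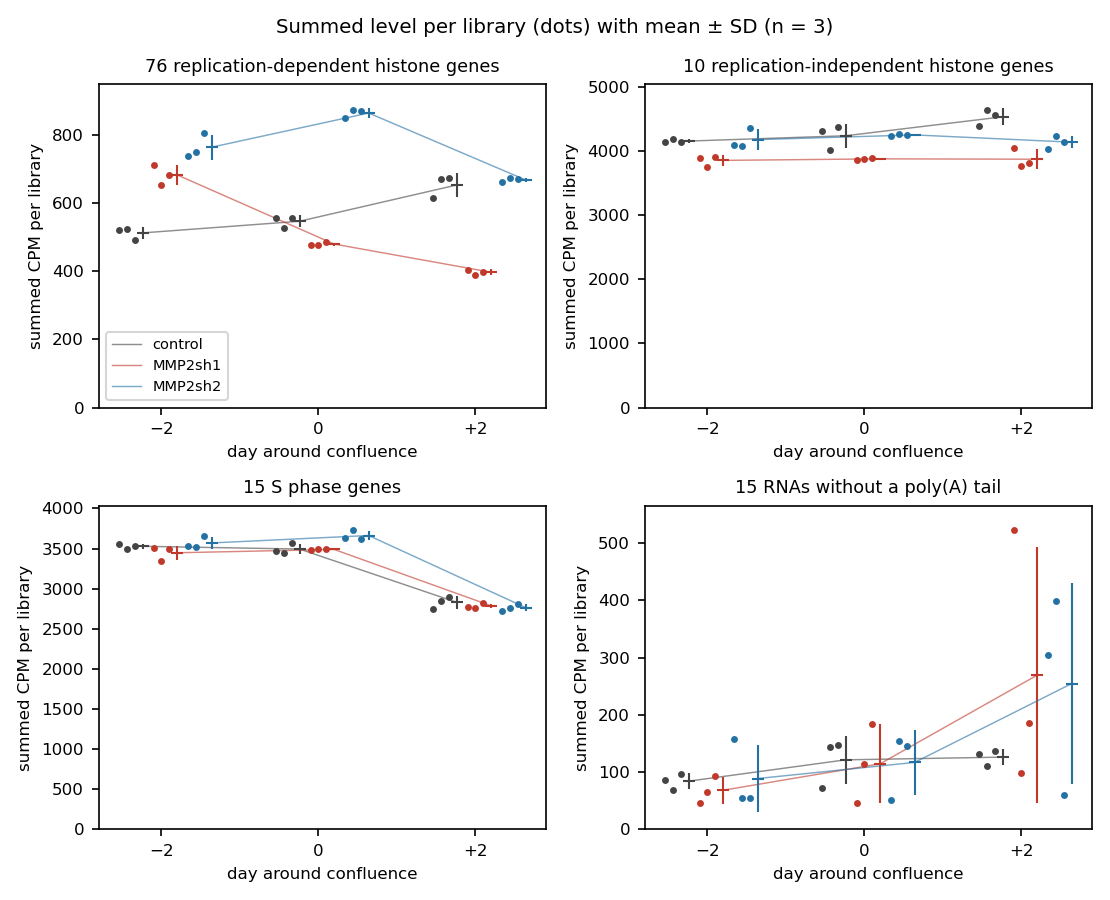
Summed CPM per library (dots) with the mean and SD of 3 libraries, by line and day, for the 76 replication-dependent genes, the 10 replication-independent genes, 15 S phase genes and 15 RNAs without a poly(A) tail, each panel on its own axis. The replication-dependent sum was lowest in the 3 MMP2sh1 libraries at day 2 (388 to 405 CPM), while the S phase sum was lower at day 2 in every line.

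In control cells, replication-dependent genes that changed from day -2 to day 2 rose, with the exception of HIST1H2AC, and 20 of the 35 tested did not pass. Of the 45 members that passed the filter on low counts, 18 rose and 4 fell (edgeR quasi-likelihood test, Benjamini-Hochberg adjusted p under 0.05, here and below), where 56.8% of all genes tested passed in either direction, 28.1% upward and 28.6% downward. Among the 35 tested replication-dependent genes 14 rose and 1 fell, with a median log2 fold change of 0.49 against 0.03 over all genes. The members that failed the filter were not tested, so these counts do not describe all 86 genes. From day -2 to day 0, 14 members rose and 4 fell of 47 tested (35.5% of all genes, 16.4% upward and 19.1% downward), and from day 0 to day 2, 12 rose and 5 fell of 46 (41.4%, 21.3% upward and 20.1% downward). Without control library 1 of day 0, 11 members in place of 18 were called from day -2 to day 0.

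HIST2H2BE, an H2B gene, rose most among the 12. Its level was 24.7, 25.2 and 24.2 CPM at day -2, 49.2, 44.9 and 42.7 at day 0, and 66.8, 65.7 and 70.9 at day 2 in control. The 3 groups did not overlap, and the log2 fold change from day -2 to day 2 was 1.46 ± 0.06 (SE; adjusted p = 8.4e-17). HIST1H2AG, an H2A gene, went from 9.27, 9.04 and 9.44 CPM at day -2 to 18.6, 19.4 and 21.1 at day 2 (1.10 ± 0.10, adjusted p = 2.9e-10). The H4 genes HIST1H4I (0.92 ± 0.17), HIST4H4 (0.85 ± 0.16) and HIST1H4H (0.74 ± 0.10) rose as well.

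The 3 genes with most reads changed less in control cells. HIST1H1C, which codes for a linker histone of the H1 family, went from 138, 149 and 120 CPM at day -2 to 177, 199 and 197 at day 2 (log2 fold change 0.50 ± 0.06, adjusted p = 1e-07). HIST1H2BK, an H2B gene, was at 194, 184 and 190 CPM at day -2 and at 181, 201 and 203 at day 2, with overlapping groups (0.05 ± 0.05, adjusted p = 0.46). HIST1H2AC, an H2A gene, fell from 61.5, 62.3 and 61.3 CPM to 50.8, 54.6 and 52.7 (-0.22 ± 0.06, adjusted p = 0.0017), and was the replication-dependent gene counted as lower above.

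Of genes near 1 CPM in control, HIST1H2BF (1.22 ± 0.43, adjusted p = 0.018) and HIST1H4J (0.98 ± 0.34, adjusted p = 0.015) rose from day -2 to day 2, and HIST2H2BD rose from day -2 to day 0 (1.20 ± 0.28) and fell from day 0 to day 2 (-0.69 ± 0.24). The call for HIST1H2BF was lost without control library 1 of day -2 or library 1 or 3 of day 2 (log2 fold change 0.80 to 1.15), that for HIST1H4J without library 3 of either day (0.60 to 0.74), and the fall of HIST2H2BD without library 1 or 3 of day 0 or library 3 of day 2 (-0.65 to -0.54).

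At day -2, in proliferating cells, HIST1H2BK, HIST1H1C, HIST1H2AC, HIST1H2BJ and HIST1H2BC were higher in both hairpin lines than in control, and of the 12 genes with most reads 6 were higher in MMP2sh1 and 7 in MMP2sh2. In MMP2sh1, 7 members were higher and 2 lower of 47 tested, beside 11.6% of all genes in either direction (5.42% higher, 6.14% lower). In MMP2sh2, 9 were higher and 1 lower of 47, beside 11% of all genes (4.71% higher, 6.33% lower). All the members that were higher were replication-dependent, in both lines. Both comparisons used the same 3 control libraries.

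HIST1H2BK stood at 277, 254 and 266 CPM in MMP2sh1 and 265, 276 and 286 in MMP2sh2 at day -2, all 6 above the control libraries (log2 fold change 0.49 ± 0.05, adjusted p = 6.8e-07, and 0.54 ± 0.05, adjusted p = 1.7e-07). HIST1H2AC stood at 105, 92.1 and 97.8 CPM in MMP2sh1 and 88.6, 82.4 and 84.0 in MMP2sh2, again without overlap (0.67 ± 0.06, adjusted p = 3.2e-08, and 0.46 ± 0.06, adjusted p = 1.6e-05). HIST1H1C stood at 172, 161 and 163 CPM in MMP2sh1 and 222, 227 and 263 in MMP2sh2. Its difference from control was 0.29 ± 0.07 (adjusted p = 0.0042) in MMP2sh1 and 0.80 ± 0.07 (adjusted p = 2.1e-08) in MMP2sh2, and the first was no longer called without control library 3 (0.20, adjusted p = 0.052).

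Among H2B genes with fewer reads, HIST1H2BC was at 3.84, 4.45 and 2.72 CPM in control, at 7.74, 8.49 and 6.81 in MMP2sh1 and at 7.11, 5.51 and 6.71 in MMP2sh2. Neither hairpin line overlapped control, and the log2 fold changes were 1.06 ± 0.17 (adjusted p = 0.00016) and 0.80 ± 0.18 (adjusted p = 0.0052). HIST1H2BJ was higher by 0.57 ± 0.09 in MMP2sh1 and by 0.50 ± 0.08 in MMP2sh2 on the log2 scale. HIST2H2BE (0.59 ± 0.08) and HIST1H4H (0.62 ± 0.11) were higher in MMP2sh2, with values of 0.17 ± 0.08 and 0.10 ± 0.12 in MMP2sh1 that did not pass (adjusted p = 0.2 and 0.67). HIST1H2AG was higher in MMP2sh1 (0.46 ± 0.11, adjusted p = 0.008), with 0.31 ± 0.11 in MMP2sh2 (adjusted p = 0.079). The 2 hairpin lines were not tested against each other.

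**Figure D3:**
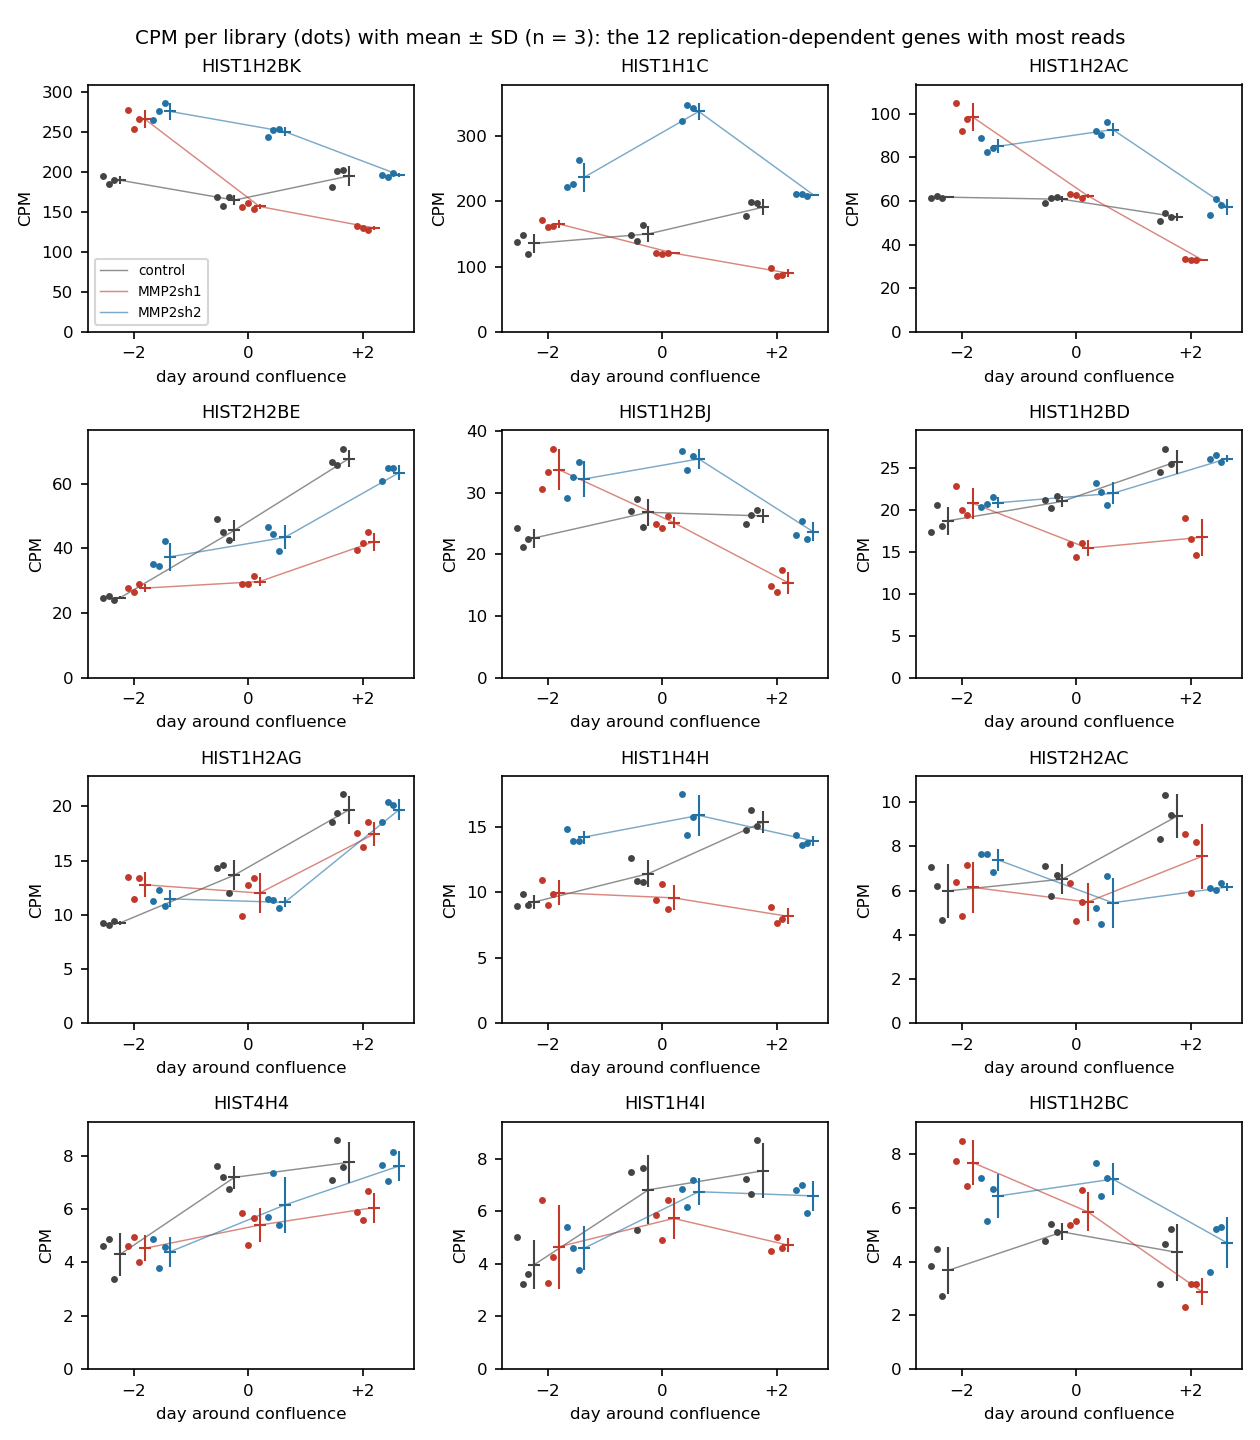
CPM per library of the 12 replication-dependent genes with most reads, 1 panel per gene with its own axis, by line and day, with 3 libraries per group. HIST1H2BK, HIST1H2AC and HIST1H2BJ were higher in both hairpin lines at day -2 and lower in MMP2sh1 at day 2, and HIST2H2BE and HIST1H2AG rose with days in the control libraries.

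At day 0, in confluent cells, most members that differed from control were lower in MMP2sh1 and higher in MMP2sh2. In MMP2sh1, 1 member was higher and 8 lower of 44 tested (16.8% of all genes in either direction, 8.26% higher and 8.58% lower), and in MMP2sh2, 6 were higher and 1 lower of 44 (12.9%, 7.07% higher and 5.81% lower). Of the 34 tested replication-dependent genes, 0 were higher and 4 lower in MMP2sh1 (11.8%, under the share of all genes). Of the 10 replication-independent genes, 1 was higher and 4 lower in MMP2sh1. All the members called in MMP2sh2 were replication-dependent. HIST1H1C had the largest difference among the genes with a mean of at least 1 CPM in MMP2sh2. It stood at 148, 139 and 164 CPM in control, at 121, 120 and 121 in MMP2sh1 and at 323, 348 and 343 in MMP2sh2, with no overlap between the 3 groups. The log2 fold changes were -0.32 ± 0.05 (adjusted p = 1.1e-05) and 1.16 ± 0.05 (adjusted p = 1.3e-19).

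HIST1H2BK was at 168, 157 and 169 CPM in control, 156, 161 and 154 in MMP2sh1 and 244, 253 and 254 in MMP2sh2 at day 0. It overlapped control in MMP2sh1 (-0.07 ± 0.04, adjusted p = 0.28) and was higher in MMP2sh2 (0.59 ± 0.04, adjusted p = 2.1e-12). HIST1H2AC likewise did not pass in MMP2sh1 (0.04 ± 0.05, adjusted p = 0.74) and was higher in MMP2sh2 (0.60 ± 0.05, adjusted p = 2.7e-10). HIST2H2BE was lower in MMP2sh1, at 28.9, 29.0 and 31.4 CPM against 49.2, 44.9 and 42.7 in control (-0.62 ± 0.07, adjusted p = 2.9e-08), and gave -0.09 ± 0.07 in MMP2sh2 (adjusted p = 0.48).

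HIST1H2BD, an H2B gene (-0.45 ± 0.09, adjusted p = 0.00028), and HIST4H4 (-0.41 ± 0.14, adjusted p = 0.041) were also lower in MMP2sh1 at day 0. The call for HIST4H4 was lost without control library 1 or 2 or MMP2sh1 library 2 or 3 (-0.44 to -0.32) and in the fit of all 27 libraries. HIST1H4H (0.46 ± 0.11), HIST1H2BJ (0.39 ± 0.08) and HIST1H2BC (0.46 ± 0.15, adjusted p = 0.035) were higher in MMP2sh2, and the call for HIST1H2BC was lost without library 1 or 3 of either line (0.39 to 0.46) and in the fit of all 27 libraries.

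At day 2, in over-confluent cells, all the members that differed from control in MMP2sh1 were lower, and few differed in MMP2sh2. In MMP2sh1, 16 of 44 tested members were lower and 0 higher, beside 14.8% of all genes in either direction, 7.68% higher and 7.11% lower. These were 10 of the 34 tested replication-dependent genes, with a median log2 fold change of -0.59 against 0.00 over all genes, and 6 of the 10 replication-independent genes. By unadjusted p under 0.05, 5137 of 19294 genes passed in this comparison. In MMP2sh2, 1 member was higher and 3 lower of 50 tested, beside 6.32% of all genes (2.89% higher, 3.43% lower), a share close to that of the members.

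HIST1H1C stood at 177, 199 and 197 CPM in control at day 2, at 97.8, 85.4 and 87.1 in MMP2sh1 and at 212, 211 and 208 in MMP2sh2. MMP2sh1 lay far below both other lines (log2 fold change -1.09 ± 0.06, adjusted p = 1.4e-13), and MMP2sh2 gave 0.14 ± 0.05 (adjusted p = 0.13). HIST1H2BK stood at 181, 201 and 203 CPM, at 132, 130 and 127, and at 196, 194 and 199 (-0.59 ± 0.06, adjusted p = 5.4e-09, in MMP2sh1). In MMP2sh2 its difference was 0.01, with a 95% interval of -0.10 to 0.11.

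HIST1H2AC stood at 50.8, 54.6 and 52.7 CPM in control, 33.6, 32.7 and 32.8 in MMP2sh1 and 53.5, 60.7 and 57.9 in MMP2sh2 (-0.68 ± 0.07, adjusted p = 1.3e-08, in MMP2sh1). HIST2H2BE stood at 39.6, 41.6 and 45.1 CPM in MMP2sh1 against 66.8, 65.7 and 70.9 in control (-0.69 ± 0.07, adjusted p = 8e-09). HIST1H4H stood at 14.8, 16.3 and 15.1 CPM in control and between 7.67 and 8.86 in the 3 MMP2sh1 libraries (-0.91 ± 0.11, adjusted p = 3.8e-07). In each of these 3 genes every MMP2sh1 library was below every control library.

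HIST1H2BJ (-0.77 ± 0.09), HIST1H4I (-0.68 ± 0.15) and HIST1H2BD (-0.63 ± 0.09) were lower in MMP2sh1 too, which makes 8 of the 12 genes with most reads. The other 4 had log2 fold changes of -0.60 (HIST1H2BC), -0.36 (HIST4H4), -0.31 (HIST2H2AC) and -0.18 (HIST1H2AG), with adjusted p from 0.056 to 0.23. Of genes with fewer reads, HIST1H3H, an H3 gene, was lower (-0.92 ± 0.27, adjusted p = 0.017) and so was HIST1H4J (-1.20 ± 0.40, adjusted p = 0.038), whose libraries overlapped control. The call for HIST1H3H was lost without control library 2 or MMP2sh1 library 2 (-0.87 to -0.59), and that for HIST1H4J without control library 3 or MMP2sh1 library 1 or 3 (-0.96 to -0.82).

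The 4 members called in MMP2sh2 at day 2 were HIST2H2AC, H1F0, HIST1H3E and HIST1H4B, of which HIST1H3E and HIST1H4B had means under 1 CPM. HIST2H2AC, an H2A gene, stood at 8.34, 10.3 and 9.41 CPM in control and at 6.09, 6.04 and 6.35 in MMP2sh2, without overlap (-0.60 ± 0.13, adjusted p = 0.0022). The number called was 2 without control library 2 or 3 or without MMP2sh2 library 1.

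**Figure D4:**
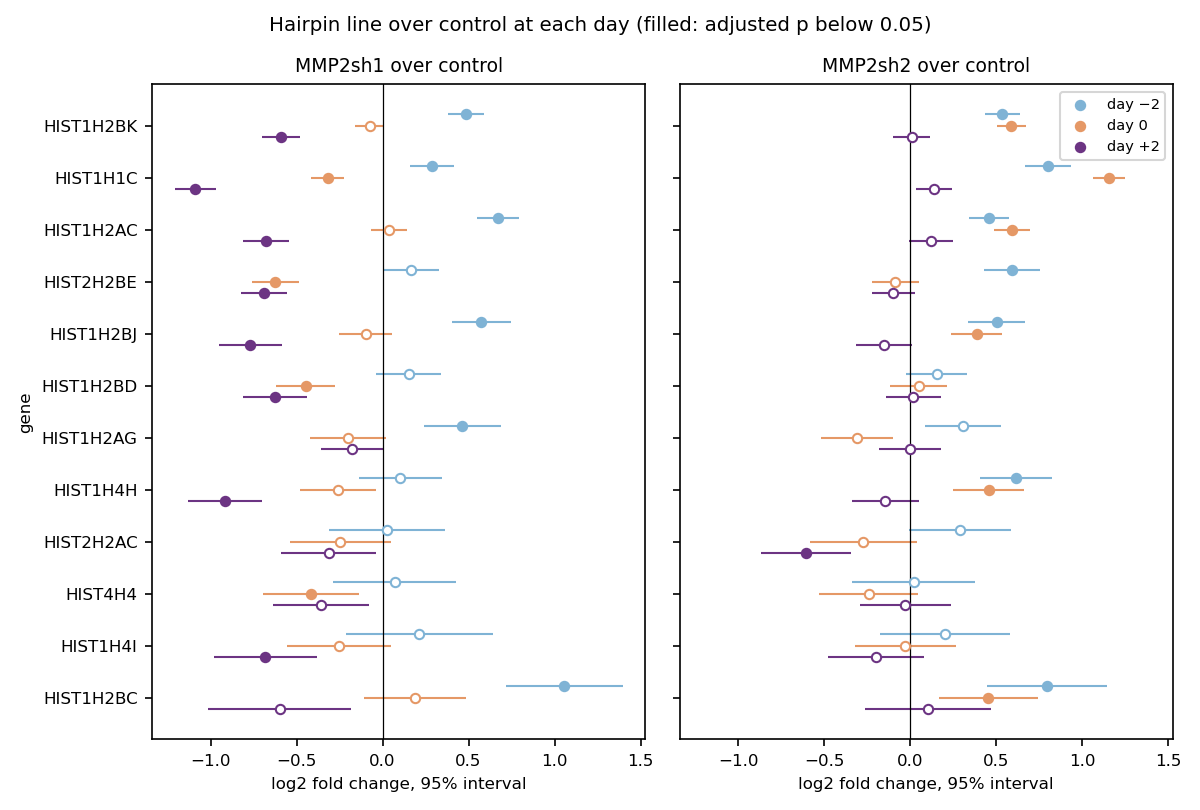
Log2 fold change of each hairpin line over control at days -2, 0 and 2 for the 12 replication-dependent genes with most reads. Bars are 95% intervals from a normal approximation on the standard error, and symbols are filled where the adjusted p (edgeR) was under 0.05. In MMP2sh1 the values went from above 0 at day -2 to below 0 at day 2 in all 12 genes, as with HIST1H1C (0.29 and -1.09), and in MMP2sh2 all 12 were above 0 at day -2, while at day 2 HIST2H2AC (-0.60) was the 1 gene of the 12 that passed.

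From day -2 to day 2 the 3 genes that gave most reads fell in both hairpin lines. In MMP2sh1, 7 members rose and 11 fell of 44 tested (54.9% of all genes in either direction, 27.3% upward and 27.7% downward), and in MMP2sh2, 10 rose and 10 fell of 48 (54.7%, 27.7% upward and 27.1% downward). HIST1H2AC fell by 1.58 on the log2 scale in MMP2sh1 and by 0.56 in MMP2sh2. HIST1H2BK fell by 1.04 in MMP2sh1 and by 0.48 in MMP2sh2, and HIST1H2BJ by 1.13 and 0.44. HIST2H2BE rose in both, by 0.60 in MMP2sh1 and 0.77 in MMP2sh2.

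In MMP2sh1 HIST1H2BC fell from day -2 to day 2 (-1.42 ± 0.18) and HIST1H2BN, an H2B gene, rose (0.59 ± 0.22, adjusted p = 0.028), a call lost without library 2 or 3 of either day (0.45 to 0.59). MMP2sh2 cells gained HIST1H4E (0.93 ± 0.28, adjusted p = 0.0051) and HIST4H4 (0.80 ± 0.16) over the same days. HIST1H1C fell in MMP2sh1 (-0.88 ± 0.07, adjusted p = 7.1e-11). In MMP2sh2 it rose from day -2 to day 0 (0.51 ± 0.06) and fell from day 0 to day 2 (-0.66 ± 0.05), for a difference over both intervals of -0.17 ± 0.06 (adjusted p = 0.022), a call that was lost without MMP2sh2 library 3 of day -2 or library 1 or 2 of day 2 (-0.17 to -0.10).

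Over the shorter intervals, 4 members rose and 9 fell of 47 tested in MMP2sh1 from day -2 to day 0 (32.7% of all genes, 15% upward and 17.7% downward), and 6 rose and 11 fell of 43 from day 0 to day 2 (46%, 23.1% upward and 23% downward). In MMP2sh2, 6 rose and 6 fell of 48 (30.3%, 13.9% upward and 16.4% downward), and then 9 rose and 12 fell of 49 (45.5%, 22.5% upward and 23% downward). HIST1H2BK (-0.76 ± 0.05) and HIST1H2AC (-0.65 ± 0.06) fell most from day -2 to day 0 in MMP2sh1 among genes with a mean of at least 1 CPM. HIST1H2AG rose from day 0 to day 2 in both hairpin lines, by 0.56 ± 0.11 in MMP2sh1 and 0.85 ± 0.10 in MMP2sh2. The counts from day -2 to day 0 were 7 without MMP2sh1 library 2 of day 0, and 6 without MMP2sh2 library 1 or 2 of day 0.

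A test of the interaction asked whether the change from day -2 to day 2 differed between a hairpin line and control. For MMP2sh1, 11 of 51 tested members changed less upward, or more downward, than in control and 0 the other way, beside 7.4% of all genes in either direction, 2.88% in this one and 4.52% in the other. They were 10 replication-dependent genes, 9 of them among the 12 with most reads, and H2AFX. For MMP2sh2, 8 of 53 did so and 0 the other way, beside 4.98%, 2.28% and 2.71%, and 7 of them were replication-dependent. The median over the tested replication-dependent genes was -0.69 for MMP2sh1 (41 genes) and -0.40 for MMP2sh2 (43 genes), against 0.01 and 0.00 over all genes.

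HIST1H1C had an interaction of -1.37 ± 0.10 (adjusted p = 4.1e-11) for MMP2sh1 and of -0.67 ± 0.09 (adjusted p = 1e-05) for MMP2sh2. HIST1H2AC gave -1.35 ± 0.09 and -0.34 ± 0.09 (adjusted p = 0.017 in MMP2sh2), the second of which was lost on leaving out any of 5 libraries (-0.33 to -0.28), namely control library 1 of day -2, control library 2 or 3 of day 2 and MMP2sh2 library 1 of either day. HIST1H2BK gave -1.07 ± 0.08 and -0.53 ± 0.07, and HIST1H2BJ -1.34 ± 0.13 and -0.66 ± 0.12. The interactions of both lines share the control libraries and were not tested against each other.

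HIST2H2BE rose in all 3 lines and still differed, with interactions of -0.86 ± 0.10 for MMP2sh1 and -0.69 ± 0.10 for MMP2sh2, since its rise was 1.46 in control. HIST1H4H gave -1.02 ± 0.16 and -0.76 ± 0.14. For MMP2sh1 alone the test passed in HIST1H2BC (-1.65 ± 0.28, adjusted p = 0.00028), HIST1H2BD (-0.78 ± 0.14) and HIST1H2AG (-0.64 ± 0.14, adjusted p = 0.0044), and for MMP2sh2 alone in HIST2H2AC (-0.90 ± 0.20, adjusted p = 0.0056). HIST4H4 did not pass in either line (-0.43 ± 0.23 and -0.05 ± 0.22, adjusted p = 0.3 and 0.94).

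The replication-independent genes gave most histone reads. Their sum lay between 3755 and 4643 CPM in all 27 libraries, and the ratio of means between day 2 and day -2 was 1.09 in control, 1.00 in MMP2sh1 and 0.990 in MMP2sh2. The ratio of MMP2sh1 to control was 0.928, 0.915 and 0.854 at days -2, 0 and 2, and that of MMP2sh2 was 1.01, 1.00 and 0.913. Within the sum, single variants rose and fell with growth.

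Both linker variants were lower in MMP2sh1. H1F0, a linker histone known to build up in cells that stop dividing, stood at 1225, 1233 and 1161 CPM in control and 939, 942 and 958 in MMP2sh1 at day -2, and at 1411, 1430 and 1415 against 1179, 1032 and 995 at day 2, without overlap at either day. Its log2 fold changes over control were -0.35 ± 0.05 (adjusted p = 2.5e-05), -0.34 ± 0.04 (adjusted p = 9.8e-09) and -0.41 ± 0.05 (adjusted p = 8.4e-07) at days -2, 0 and 2. In MMP2sh2 they were -0.08, -0.03 and -0.28, and the last of these passed (adjusted p = 1.2e-05). H1FX, another linker variant, gave -0.19 ± 0.05 (adjusted p = 0.022), -0.26 ± 0.05 and -0.36 ± 0.06 in MMP2sh1, and the call at day -2 was lost without control library 2 or 3 or MMP2sh1 library 2 (-0.20 to -0.15) and in the fit of all 27 libraries. H1F0 rose from day -2 to day 2 in control by 0.24 ± 0.04.

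Of the H2A variants, H2AFY2, which codes for a macroH2A protein found in condensed chromatin, rose with growth in each line. It went from 48.2, 46.0 and 51.7 CPM at day -2 to 89.5, 95.4 and 96.2 at day 2 in control, and the log2 fold changes were 0.95 ± 0.06 in control, 0.83 ± 0.07 in MMP2sh1 and 0.86 ± 0.07 in MMP2sh2. H2AFY, the other macroH2A gene, fell by 0.31, 0.32 and 0.28 in control, MMP2sh1 and MMP2sh2. No difference of H2AFY or H2AFY2 between a hairpin line and control passed the test at any of the 3 days.

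H2AFX codes for the variant that is phosphorylated at DNA breaks, and its mRNA is known to exist with a stem-loop end and with a tail. It went from 445, 472 and 484 CPM at day -2 to 331, 369 and 378 at day 2 in control, and to 302, 295 and 304 in MMP2sh1 from 460, 457 and 526. The log2 fold changes were -0.37 ± 0.05 in control, -0.68 ± 0.06 in MMP2sh1 and -0.60 ± 0.06 in MMP2sh2. The interaction was -0.30 ± 0.08 (adjusted p = 0.019) for MMP2sh1, lost without control library 2 or 3 or MMP2sh1 library 2 of day 2 (-0.29 to -0.27), and -0.23 ± 0.08 (adjusted p = 0.069) for MMP2sh2.

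H2AFZ, which codes for H2A.Z, a variant found at promoters, fell from day -2 to day 2 by 0.37 ± 0.04 in control, 0.27 ± 0.06 in MMP2sh1 and 0.22 ± 0.06 in MMP2sh2, and was higher in MMP2sh1 than in control at day 0 (0.19 ± 0.04, adjusted p = 0.00037). H2AFV, which codes for a second form of H2A.Z, was lower in MMP2sh1 at day 2 (-0.19 ± 0.05, adjusted p = 0.011), a call lost without library 2 of either line (-0.18 to -0.17).

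The genes for H3.3, the H3 variant that is placed outside replication, rose with growth in control. H3F3B went from 702, 697 and 704 CPM at day -2 to 1022, 1106 and 1086 at day 2 in control, and the log2 fold changes were 0.62 ± 0.04 in control, 0.42 ± 0.05 in MMP2sh1 and 0.40 ± 0.05 in MMP2sh2. H3F3A rose by 0.28 ± 0.05 in control and 0.20 ± 0.06 in MMP2sh2 and gave 0.08 ± 0.06 (adjusted p = 0.28) in MMP2sh1. At day 2 both were lower in MMP2sh1 than in control (H3F3A -0.30 ± 0.05, H3F3B -0.19 ± 0.05), though H3F3B was not called without library 2 of either line (-0.17 to -0.16). The interaction of H3F3B was -0.22 ± 0.06 (adjusted p = 0.033) for MMP2sh2, and it was lost on leaving out any of 9 of the 12 libraries (-0.23 to -0.19), that is, all but control library 1 of day 2, MMP2sh2 library 1 of day -2 and MMP2sh2 library 3 of day 2. H3F3C, the low H3 gene named above, was at 0.915, 0.589 and 0.906 CPM in MMP2sh2 at day -2, at 0.196, 0.447 and 0.185 at day 0 and at 0.846, 0.823 and 0.472 at day 2. It was called lower from day -2 to day 0 (-1.53 ± 0.54, adjusted p = 0.033) and higher from day 0 to day 2 (1.39 ± 0.54, adjusted p = 0.038), without overlap between those days. The first call was lost without library 1 or 3 of either day (-1.44 to -1.32), and the second without library 1 or 3 of day 0 or library 1 or 2 of day 2 (1.17 to 1.28) and with no filter. It passed in no other comparison.

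**Figure D5:**
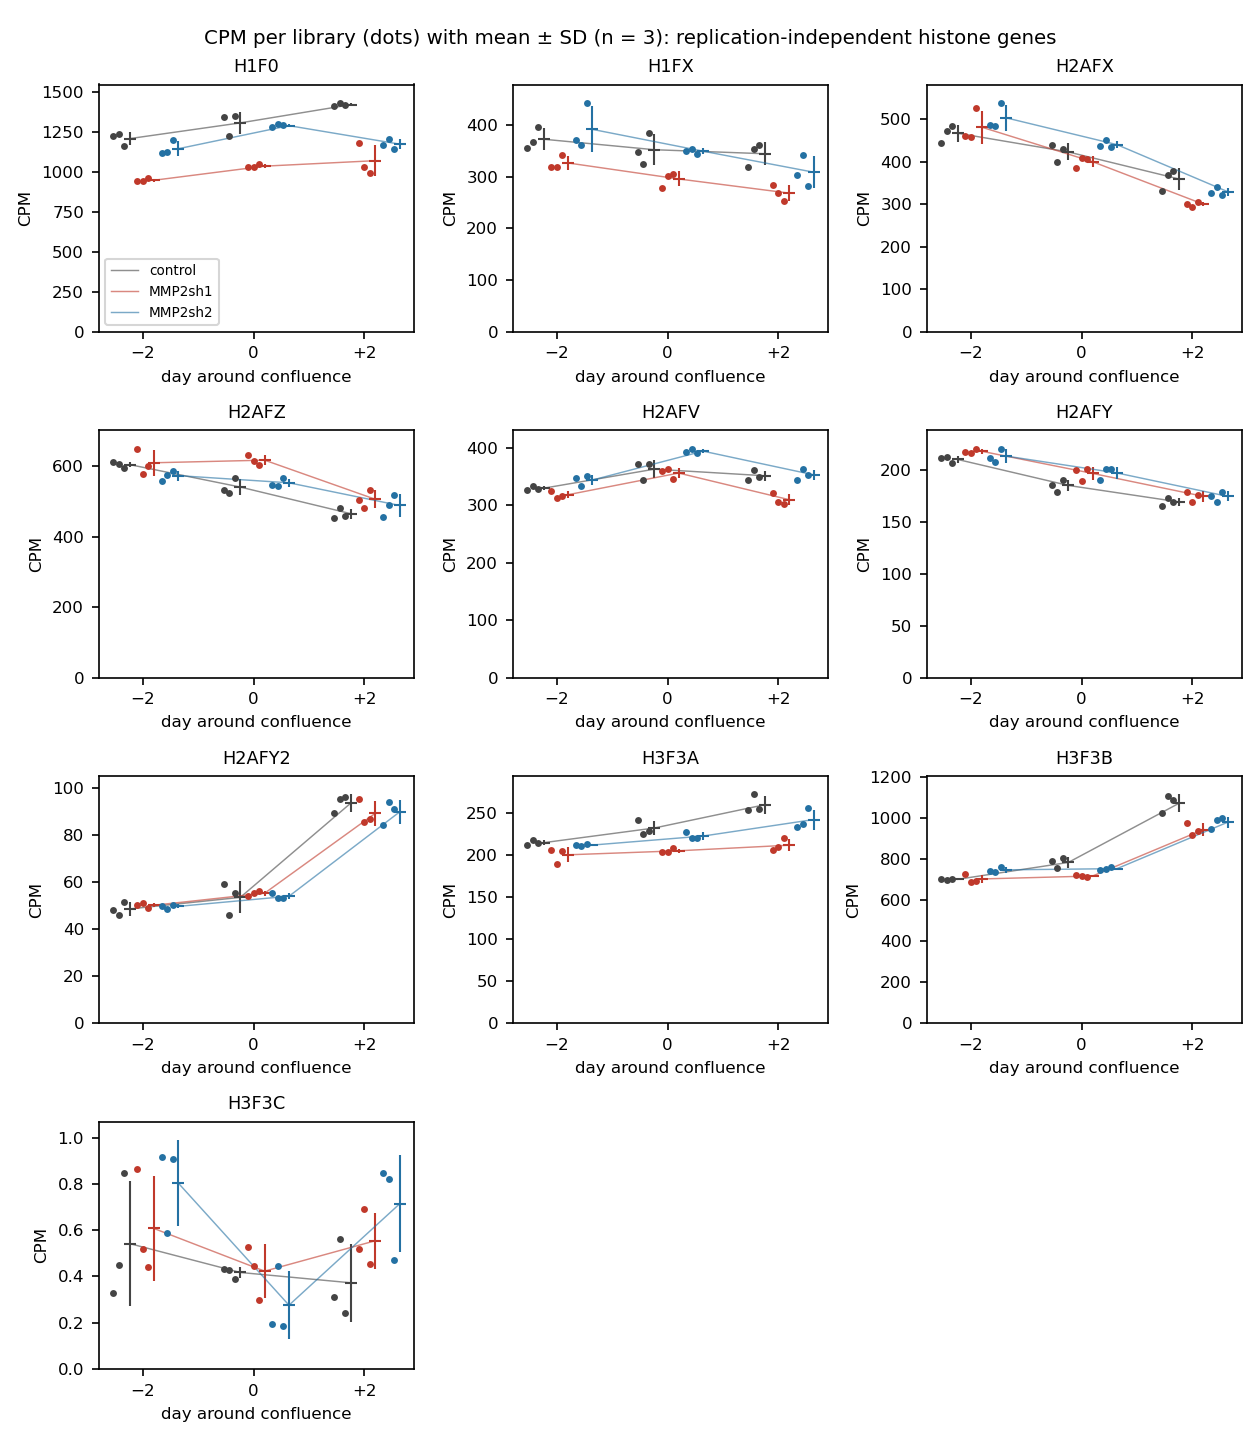
CPM per library of the 10 replication-independent histone genes, 1 panel per gene with its own axis, by line and day, with 3 libraries per group. H2AFY2 rose to between 84.3 and 96.2 CPM at day 2 in all 3 lines, and H1F0 was lower in MMP2sh1 than in control at each day.

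A list of 33 genes for histone mRNA synthesis, processing and decay and for histone chaperones was set beside the members, and 32 passed the filter. From day -2 to day 2 in control, 6 rose and 17 fell, or 71.9% of the 32, beside 56.8% of all genes. SLBP, the protein that binds the stem-loop, fell by 0.28 ± 0.06 in control, 0.44 ± 0.08 in MMP2sh1 and 0.45 ± 0.07 in MMP2sh2. Of the histone chaperones, SSRP1 (-0.61) and CHAF1A (-0.58) fell in control together with UBN1 (-0.55), while ATRX (0.43) and NASP (0.23) rose, as did ZCCHC6 (0.41), which adds uridines to mRNA ends.

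Between hairpin lines and control, few genes of the list differed at day 2. At day -2, 3 of its genes were higher and 4 lower in MMP2sh1 (21.9% of the 32, beside 11.6% of all genes), and 2 higher and 7 lower in MMP2sh2 (28.1%, beside 11%). At day 0 the counts were 4 and 3 in MMP2sh1 (21.9%, beside 16.8%), and 3 and 1 in MMP2sh2 (12.5%, beside 12.9%). At day 2 they were 1 and 2 in MMP2sh1 (9.38%, beside 14.8%) and 0 and 0 in MMP2sh2 (beside 6.32%) by edgeR, where 3434 of all 19339 genes had an unadjusted p under 0.05. SLBP did not pass at any day in either line, with log2 fold changes of -0.13 to 0.05 and adjusted p from 0.29 to 0.89. LSM11, a part of the particle that cuts histone mRNA at its end, was higher in MMP2sh1 at day 2 (0.56 ± 0.11, adjusted p = 0.00061), and HIRA, the chaperone of H3.3, had the only interaction that passed in the list (-0.43 ± 0.13, adjusted p = 0.041, for MMP2sh1).

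The 15 S phase genes (MCM2 to MCM7, PCNA and others that are made for DNA replication) were lower by their sum at day 2 than at day -2 in each line. The sum went from 3528 ± 32.0 CPM at day -2 to 2829 ± 77.8 at day 2 in control, with ratios of 0.802 in control, 0.808 in MMP2sh1 and 0.774 in MMP2sh2. From day -2 to day 2, 0 rose and 10 fell in control (of 15, beside 56.8% of all genes in either direction), 0 and 9 in MMP2sh1 (beside 54.9%), and 1 and 11 in MMP2sh2 (beside 54.7%). Against control at day -2, 0 were higher and 3 lower in MMP2sh1 (20%, beside 11.6%), and 0 and 1 in MMP2sh2 (6.67%, beside 11%). At day 0 the counts were 3 and 4 in MMP2sh1 (46.7%, beside 16.8%), and 1 and 0 in MMP2sh2 (6.67%, beside 12.9%). At day 2, 1 was higher and 4 lower in MMP2sh1 than in control (33.3%, beside 14.8%), RRM2 among the lower ones (-0.27 ± 0.05), and 0 higher and 2 lower in MMP2sh2 (13.3%, beside 6.32%). The ratio of the sum to control at day 2 was 0.985 in MMP2sh1 and 0.977 in MMP2sh2, beside 0.608 and 1.02 for the replication-dependent histone genes.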

How the data were processed

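Poly(A)-selected RNA of U2OS cells (TRIzol extraction, NEBNext Ultra II kit without strand marking, paired 150-base reads) was deposited by the authors as raw read counts per gene symbol, 1 table per library. Per the submitters' processing notes and the study's methods, reads were trimmed with Trim Galore 0.6.0, aligned to hg19 with STAR 2.7.3a and counted over exons with HTSeq 2.0.0 in union mode, without strand and with a minimum quality of 10. The authors' own tests used DESeq2. The annotation behind the counts is not given in the sources used here. All reads not assigned to a gene (16.77 to 19.1%) were left out of library sizes. This share includes the ambiguous reads (6.95 to 7.83%) and the multiple alignments (2.72 to 3.76%). Each share is relative to the total of assigned and unassigned reads.

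Each of 15 pairs of groups was fitted on its own 6 libraries, and each of 2 interactions on 12, with edgeR 4.0.16 (R 4.3.3, limma 3.58.1): TMM scaling, a filterByExpr filter with min.count at 10 and min.total.count at 15, and quasi-likelihood F tests whose p-values were adjusted by Benjamini-Hochberg over every gene that passed, with a threshold of 0.05. Levels are CPM with TMM factors of all 27 libraries. Standard errors are the log2 fold change divided by the root of the F statistic. The 95% intervals are a normal approximation on these errors and can be narrower than the F test implies. Alternatives were DESeq2 1.42.0, median-of-ratios scaling, no filter, at least 10 counts in every library, a replicate block, a fit of all 27 libraries, and leaving out each library. On simulated counts for MMP2sh1 against control at day 2, with 200 of 18851 genes changed 2-fold, edgeR called 148 of these and 4 others. For day 2 against day -2 in control, with 200 of 18645 genes changed, it called 136 and 8 others. For the interaction of MMP2sh1, with 200 of 19904 genes changed, it called 124 and 9 others. Far more genes differed in the data (56.8% passed for day 2 against day -2 in control), so these numbers need not carry over.

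Genes named are MMP2, the 12 replication-dependent genes with the highest mean CPM, all 10 replication-independent genes, up to 3 called members in each direction per comparison with a mean of at least 1 CPM, and, of the supply list, SLBP and up to 3 called genes in each direction. HIST1H3E and HIST1H4B were named after their values were seen, as were HIRA and RRM2. The members and lists were chosen with earlier results of these data known. Summaries and plots used Python 3.11.15, pandas 2.3.3 and matplotlib 3.10.9. Gene positions come from GENCODE v44 lifted to GRCh37.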

Additional observations from a re-analysis of the deposited data

Results flagged for a closer look

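The results below were singled out because the change from day -2 to day 2 differed between a hairpin line and control by the interaction test of edgeR (adjusted p under 0.05). Both sets of values use the same control libraries and are given side by side, and all are differences of log2 fold changes.

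For MMP2sh1 the replication-dependent genes were HIST1H2BC (-1.65), HIST1H1C (-1.37), HIST1H2AC (-1.35), HIST1H2BJ (-1.34), HIST1H3H (-1.32), HIST1H2BK (-1.07), HIST1H4H (-1.02), HIST2H2BE (-0.86), HIST1H2BD (-0.78) and HIST1H2AG (-0.64). H2AFX (-0.30) was the replication-independent gene. HIST1H3H (adjusted p = 0.04) lost its call on leaving out any of 8 of the 12 libraries, with values of -1.39 to -0.98, so that only control library 2 of day -2, MMP2sh1 library 2 of day -2 and MMP2sh1 libraries 1 and 3 of day 2 could be left out singly with the call kept.

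For MMP2sh2 they were HIST2H2AC (-0.90), HIST1H4H (-0.76), HIST2H2BE (-0.69), HIST1H1C (-0.67), HIST1H2BJ (-0.66), HIST1H2BK (-0.53) and HIST1H2AC (-0.34), with H3F3B (-0.22) as the replication-independent gene. HIST1H4I missed the threshold for MMP2sh1 (-0.89 ± 0.28, adjusted p = 0.05) and passed it under 6 other settings (-0.91 to -0.88).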

How the results depend on the processing

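The number of members called stayed within 1.5 times under DESeq2, another scaling, no filter, a replicate block and the fit of all 27 libraries, in all 17 comparisons and interactions. With at least 10 counts in every library, MMP2sh2 against control at day 2 gave 2 in place of 4. No named value changed sign with its call. Of the values of named members under settings other than leaving out a library, 2971 kept their side of the threshold, 36 passed where they had not and 32 no longer passed. On leaving out a library these numbers were 3194, 38 and 188. Values that passed in neither fit were counted as kept whatever their direction. The causes of the changes were not tested.

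Leaving out each library in turn gave 6 to 9 members called for MMP2sh1 and 7 to 8 for MMP2sh2 against control at day -2, 7 to 10 and 5 to 7 at day 0, and 13 to 17 and 2 to 5 at day 2. For growth from day -2 to day 0, day 0 to day 2 and day -2 to day 2 the ranges were 11 to 16, 14 to 18 and 20 to 22 in control, 7 to 12, 13 to 18 and 16 to 20 in MMP2sh1, and 6 to 9, 15 to 20 and 17 to 20 in MMP2sh2. They were 9 to 13 and 6 to 9 for the interactions. In MMP2sh2 from day -2 to day 0, the split of 6 higher and 6 lower became 7 and 4 with at least 10 counts in every library.

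Replicate numbers showed no clear pairing of the samples: 45 correlations between same-numbered libraries ran from -0.212 to 0.197 (median -0.0142), and in 0 of 15 comparisons were all above 0.1. With 3 libraries per group such correlations cannot exclude a pairing. With the replicate number as a block the counts against control were 9 and 9 at day -2, 9 and 5 at day 0, and 16 and 3 at day 2 for MMP2sh1 and MMP2sh2, those for growth 15, 17 and 21 in control, 13, 16 and 18 in MMP2sh1, and 10, 20 and 20 in MMP2sh2, and those of the interactions 12 and 8.

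Genes near or under 1 CPM rest on few reads, and 44 of the 76 replication-dependent genes passed the filter in at least 1 comparison of 2 groups. Untailed histone mRNA was not measured by these libraries, and the supply and S phase genes are given under 1 setting only. With 3 libraries per group and 1 line per hairpin, line and hairpin cannot be told apart.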
